A study of Mus musculus with 8 samples.

Results

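The mitochondrial chromosome of the mouse carries 37 genes, and all 37 were listed among the 51826 genes of the deposited count table. They were chosen by position alone, as the Ensembl identifiers annotated on chrM of GRCm38 (mm10), and fall into 13 protein genes, 2 ribosomal RNAs and 22 transfer RNAs. The libraries were made from heart cells labelled as cardiomyocytes, from C57BL/6 mice that were wild type (WT) or null for the long noncoding RNA gene LncSync (LncSync-/-, here KO). Each genotype was sampled at e13.5, a stage of the embryo given in days of gestation, and in adults, with 2 libraries in each of the 4 groups, and no other treatment, transgene or adult age was given. No gene of the table carries the name LncSync, so the null allele was not checked at the RNA level. Nothing in the labels ties a library to an animal, so each p-value below reflects only how far these samples spread, and that spread may be technical.

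Mitochondria keep a small circular genome that is transcribed from both strands as long precursors, each covering many genes. The transfer RNAs lie between the other genes, and their excision releases the messenger and ribosomal RNAs, whose levels then depend on how long each is kept. The protein genes encode core subunits of respiratory complexes I, III, IV and V, which make ATP by oxidative phosphorylation. All other subunits and the proteins of the expression machinery come from nuclear genes. Heart muscle of adult animals is among the tissues richest in mitochondria, and the embryonic heart relies more on glycolysis.

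Most of the chromosome is genes, which together cover 15365 bases, and some neighbours overlap. Of the protein genes 12 are read from the plus strand (chrM:2751-15288 from mt-Nd1 to mt-Cytb), and mt-Nd6 is read from the minus strand (chrM:13552-14070). The sequences below show places where a count cannot be given to a single gene from the read alone, because neighbouring genes share bases. In the end of mt-Atp8 (chrM:7897-7969, plus strand) the capitals mark the 43 bases that are also the start of mt-Atp6, and in mt-Nd4l (chrM:10137-10173, plus strand) they mark the 7 bases shared with mt-Nd4. In the ends of mt-Nd5 (chrM:13522-13565, plus strand) and mt-Nd6 (chrM:13552-13595, minus strand) they mark the 14 bases that both genes hold on opposite strands. The labels name no strand-specific kit or counting, so reads of mt-Nd6 and reads of antisense RNA at its locus cannot be told apart. All sequences were read from the GENCODE vM21 transcripts of GRCm38 and run 5′ to 3′.
mt-Atp8 end: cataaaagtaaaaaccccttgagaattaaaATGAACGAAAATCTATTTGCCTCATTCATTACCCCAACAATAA
mt-Nd4l end: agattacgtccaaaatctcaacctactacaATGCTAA
mt-Nd5 end: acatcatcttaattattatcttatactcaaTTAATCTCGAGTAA
mt-Nd6 end: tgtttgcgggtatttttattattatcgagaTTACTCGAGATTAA

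Pieces of mitochondrial DNA have also been copied into the nuclear chromosomes, and such copies bear on the counts of this group. A search of all annotated transcripts found 11 nuclear copies of 9 of the protein genes with an identity of 95% or more across 50% or more of the copy, and 7 of them lie side by side on chromosome 1 (chr1:24611535-24616197, minus strand). Some pairs in that cluster are identical over the whole aligned stretch. They join mt-Co2 with Gm28661 (681 bases), mt-Atp6 with Gm10925 (678), mt-Co3 with Gm28437 (783), mt-Nd4l with Gm10222 (294) and mt-Nd4 with Gm28439 (876). The pairs below are shown because only a few letters separate gene and copy. In the first pair, the end of mt-Atp6 (chrM:8545-8607, plus strand) and Gm10925 (chr1:24613974-24614033, minus strand), the gene ends with a complete stop codon (capitals), before which the annotated copy ends. The capitals of the second pair, mt-Co1 (chrM:6390-6449) and Gm29216 (chr1:24616129-24616188), mark A1066T, the single mismatch in 483 aligned bases. Those of the third, mt-Nd3 (chrM:9459-9518) and Gm28438 (chr1:24613060-24613119), mark T3C, the single mismatch in 345. Positions count from the first base of the mitochondrial gene, and the mitochondrial base comes first.
mt-Atp6: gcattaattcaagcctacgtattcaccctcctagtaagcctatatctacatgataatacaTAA
Gm10925: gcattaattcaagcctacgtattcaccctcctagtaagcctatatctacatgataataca
mt-Co1: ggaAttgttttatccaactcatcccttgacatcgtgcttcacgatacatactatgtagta
Gm29216: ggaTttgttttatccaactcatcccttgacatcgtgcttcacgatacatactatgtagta
mt-Nd3: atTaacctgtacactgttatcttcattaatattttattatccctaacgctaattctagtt
Gm28438: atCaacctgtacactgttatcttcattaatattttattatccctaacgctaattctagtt

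Total counts ran from 16495084 to 20395600 per library, and levels are given as CPM, that is, per 1000000 counts of the library, with library sizes scaled by the trimmed mean of M values (TMM). A count of 0 allows a level of up to 3 counts, which is 0.103 to 0.207 CPM. This limit covers counting alone, and not a 0 that comes from dividing reads between a gene and a near-identical copy. All 16 cardiomyocyte markers (such as Myh6, Tnnt2 and Actc1) had counts in all 8 libraries and summed to between 26967 and 55074 per 1000000 counts at e13.5 and between 64360 and 93807 in adults. Erythroid markers summed to between 29012 and 155459 at e13.5 on the same scale and to between 14.6 and 138 in adults. The 11 haemoglobin genes alone took 15.5% of the counts of KO e13.5 replicate 1 and 2.89% to 4.65% of those of the other e13.5 libraries. Fibroblast markers ranged from 405 to 5318 and from 341 to 794 at the 2 ages, endothelial markers from 669 to 1152 and from 630 to 1389, and leukocyte markers from 69.4 to 129.6 and from 142 to 339. Smooth muscle markers ranged from 1836 to 2611 and from 419 to 688, and epicardial markers from 71.1 to 198 and from 10.1 to 36.0. Liver markers ranged from 2.13 to 4.73 and from 0.304 to 56.6. At e13.5 the fibroblast markers were split by replicate, with 405 and 943 per 1000000 counts in replicate 1 of KO and WT and 5114 and 5318 in replicate 2. The share of nuclear ribosomal RNA was between 4.29% and 10.7% in embryonic libraries and between 0.0728% and 0.130% in adult ones. These differences between the ages stand beside every change with age below, and their part in it was not tested.

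The protein genes of mitochondria took a small share of the counts at e13.5 and a much larger one in adults. Their summed share was 1.75 and 2.28% in the WT e13.5 libraries, 1.81 and 1.75 in KO e13.5, 22.0 and 27.4 in WT adults, and 28.2 and 26.7 in KO adults. The lowest adult library lay far above the highest embryonic one, and the 2 genotypes overlapped at each age. With the nuclear copies added, both WT e13.5 libraries (2.36% and 2.75%) lay above both of KO e13.5 (2.20% and 2.16%), and those of adults still overlapped. The group means were 2.02% ± 0.374 (SD, n = 2) in WT e13.5, 1.78% ± 0.0404 in KO e13.5, 24.7% ± 3.81 in WT adults and 27.4% ± 1.05 in KO adults. The summed share of the ribosomal RNAs went the other way, with 2.43 and 2.07% in the WT e13.5 libraries, 1.40 and 2.50 in KO e13.5, 0.598 and 0.732 in WT adults, and 0.647 and 0.679 in KO adults. That fall was of mt-Rnr2, since the share of mt-Rnr1 was 0.0762% to 0.121% at e13.5 and 0.128% to 0.184% in adults. Counts of ribosomal RNA were therefore 0.776 to 1.43 times those of the protein genes at e13.5 and 0.0230 to 0.0272 times in adults. By 95% Wilson intervals, which cover counting error alone, these shares are known to within 0.0211 percentage points. In whole-cell RNA like this, fewer cells of a type and less RNA per cell cannot be told apart.

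**Figure D1:**
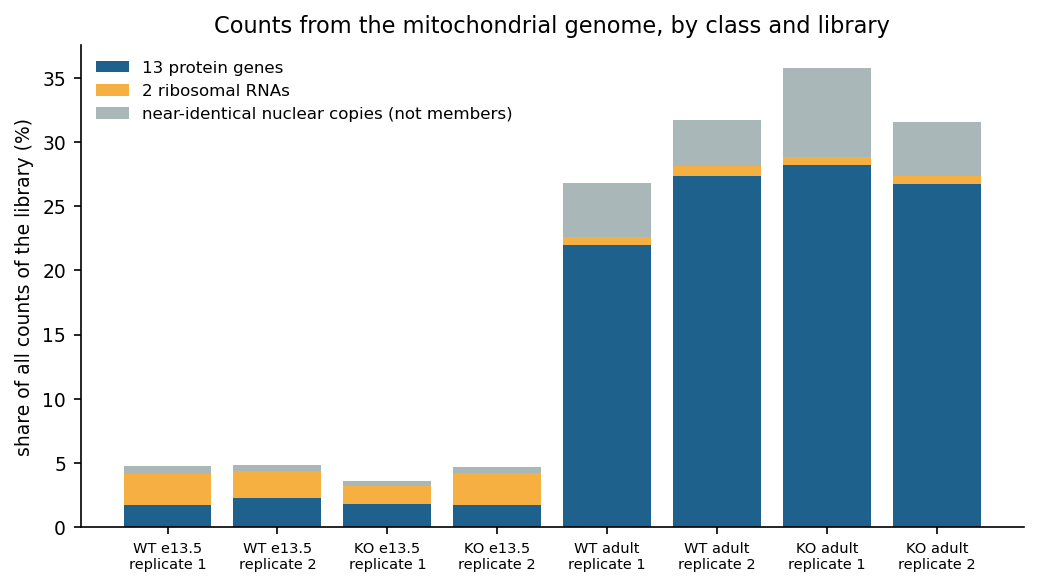
Share of all counts (%) in each of the 8 libraries, stacked for the 13 protein genes, the 2 ribosomal RNAs and the near-identical nuclear copies, which are not among the 37 genes. The bars of the protein genes end between 1.75% and 2.28% at e13.5 and between 22.0% and 28.2% in adults, and the copies add 0.389% to 0.610% and 3.62% to 6.92%.

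Of the 37 genes, 15 passed the filter on low counts: all protein genes and both ribosomal RNAs. Tests were made with edgeR's quasi-likelihood method over 16623 genes, and a gene was called at a Benjamini-Hochberg adjusted p below 0.05. Between WT e13.5 and WT adults 12 of the 13 protein genes rose, against 17.8% of all genes tested, and 1 of the 2 ribosomal RNAs fell, against 21.1%. In KO all 13 protein genes rose, against 20.5% of all genes, and neither ribosomal RNA was called, while 20.9% of all genes fell. The median log2 fold change of the protein genes was 4.42 in WT and 4.87 in KO, beside -0.26 and -0.15 over all genes tested. In 14 of the 15 genes every adult library lay above every e13.5 library, which held for 26.9% of all genes, and in the other, mt-Rnr2, every one lay below, which held for 32.3%.

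**Figure D2:**
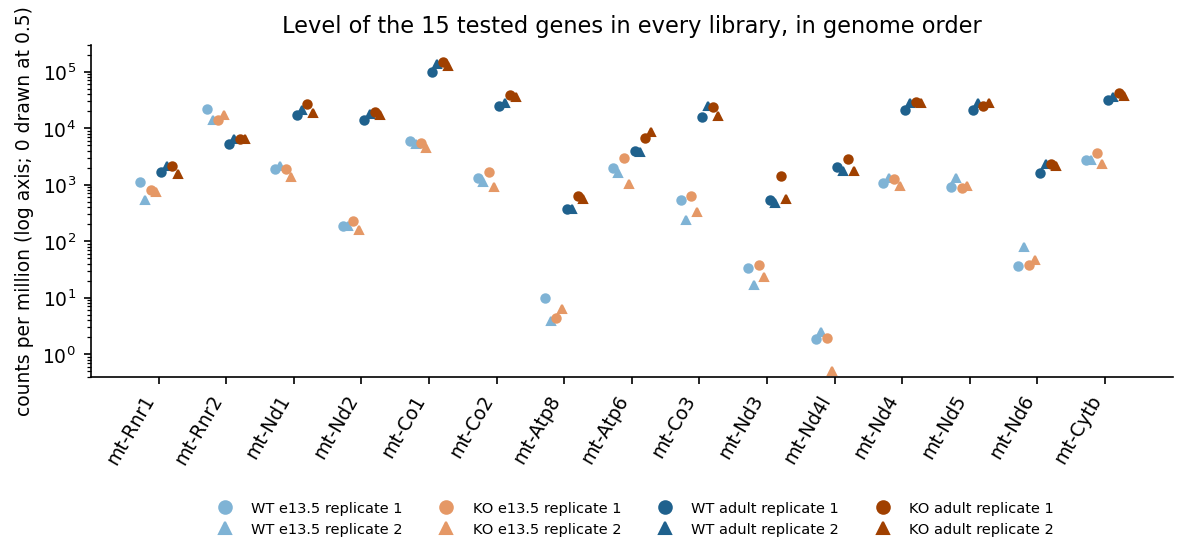
Level of the 15 tested genes in every library, in CPM on a log axis, in the order of the genes along the chromosome, with 1 symbol per library and a level of 0 drawn at 0.5. All adult values lie above all e13.5 values for every gene except mt-Rnr2, where all lie below.

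The 7 mitochondrial genes of complex I encode the membrane arm of NADH dehydrogenase, where protons are pumped, and all rose with age in both genotypes. The level of mt-Nd1 was 1859 and 2110.3 CPM in the WT e13.5 libraries, 1851 and 1346 in KO e13.5, 17395 and 20486 in WT adults, and 27127 and 18324 in KO adults. It rose the least of the complex I genes, by 3.25 ± 0.57 in WT and 3.83 ± 0.59 in KO on the log2 scale (adjusted p = 0.0024 and 0.00116). The level of mt-Nd2 was 185 and 185 CPM in the WT e13.5 libraries, 223 and 158 in KO e13.5, 13889 and 17425 in WT adults, and 19337 and 17053 in KO adults. With 6.40 ± 0.64 in WT and 6.58 ± 0.64 in KO (adjusted p = 0.000265 and 0.000224) its rise was 84.6-fold and 95.6-fold. The adult libraries of mt-Nd2 lay far above those of e13.5, and no nuclear copy took more than 2 of its counts in any library.

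Genes further along the chromosome followed the middle of the range. For mt-Nd4 the libraries held 1070.3 and 1298 CPM in the WT e13.5 libraries, 1256 and 959 in KO e13.5, 21161 and 27379 in WT adults, and 28929.8 and 27616 in KO adults, a rise of 4.36 ± 0.60 in WT and 4.67 ± 0.61 in KO (adjusted p = 0.000725 and 0.000531). For mt-Nd5 they held 918 and 1332 CPM in the WT e13.5 libraries, 870.4 and 936 in KO e13.5, 20491 and 27521 in WT adults, and 24828 and 27824 in KO adults, a rise of 4.41 ± 0.60 in WT and 4.87 ± 0.62 in KO (adjusted p = 0.000723 and 0.000484). Both are proton-pumping subunits, and their changes lay within 1 standard error of each other. The only protein gene of the minus strand, mt-Nd6, had 36.8 and 78.9 CPM in the WT e13.5 libraries, 38.1 and 47.0 in KO e13.5, 1575 and 2293 in WT adults, and 2358 and 2119 in KO adults. It rose by 5.06 ± 0.60 in WT and 5.72 ± 0.62 in KO (adjusted p = 0.000422 and 0.000278), with the limit on strand given above. WT e13.5 replicate 2 was the highest of its age, and without it the WT change was 5.74.

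The 2 smallest complex I genes, mt-Nd3 and mt-Nd4l, were also divided with a nuclear copy in the counting. For mt-Nd3 the table lists 33.0 and 16.6 CPM in the WT e13.5 libraries, 37.4 and 22.9 in KO e13.5, 542 and 464 in WT adults, and 1393 and 548 in KO adults, and the change was 4.34 ± 0.65 in WT and 5.01 ± 0.67 in KO (adjusted p = 0.00111 and 0.000615). KO adult replicate 1 stood above the other adults, and without it the KO change was 4.19, while without WT e13.5 replicate 1 the WT change was 5.06. For mt-Nd4l the table lists 1.89 and 2.48 CPM in the WT e13.5 libraries, 1.94 and 0 in KO e13.5, 2084 and 1747 in WT adults, and 2788 and 1713 in KO adults. KO e13.5 replicate 2 had no count at all, and the other e13.5 libraries had 31 to 72. The fitted change of 9.77 ± 1.47 in WT and 11.25 ± 1.56 in KO (adjusted p = 0.00113 and 0.000726) is therefore no measure of its size, and the KO value was 10.17 without KO e13.5 replicate 2. Without KO e13.5 replicate 1 only the library at 0 is left, and the fitted value of 18.4 is no bound.

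Complex III takes a single mitochondrial subunit, cytochrome b, which carries electrons across the membrane. The level of mt-Cytb was 2779 and 2742 CPM in the WT e13.5 libraries, 3636 and 2302 in KO e13.5, 31449.5 and 35902 in WT adults, and 41183 and 36691 in KO adults. It rose by 3.61 ± 0.60 in WT and 3.71 ± 0.60 in KO (adjusted p = 0.00179 and 0.00145), or 12.2-fold and 13.1-fold. The adult libraries were well apart from the embryonic ones, and no nuclear copy of the gene was found.

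Complex IV, cytochrome c oxidase, has its catalytic core in mt-Co1, mt-Co2 and mt-Co3. The level of mt-Co1, the subunit with the site of oxygen reduction, was 5794 and 5133 CPM in the WT e13.5 libraries, 5536 and 4466 in KO e13.5, 99570.4 and 133584 in WT adults, and 148480.0 and 123152 in KO adults. It took 8.66% to 11.4% of all counts of the adult libraries and was the gene with the most counts in all 4 of them. Its change was 4.42 ± 0.67 in WT and 4.76 ± 0.68 in KO (adjusted p = 0.00113 and 0.000804). The level of mt-Co2, the subunit that receives electrons from cytochrome c, was 1301 and 1107 CPM in the WT e13.5 libraries, 1669.8 and 914 in KO e13.5, 24705 and 27588 in WT adults, and 38601 and 35916 in KO adults. It rose by 4.44 ± 0.63 in WT and 4.85 ± 0.64 in KO (adjusted p = 0.000862 and 0.000585), and both KO adults lay above both WT adults. For mt-Co3 the table lists 529 and 237 CPM in the WT e13.5 libraries, 625 and 329 in KO e13.5, 15501 and 24726 in WT adults, and 23667 and 16296 in KO adults, a change of 5.72 ± 0.76 in WT and 5.39 ± 0.75 in KO (adjusted p = 0.000649 and 0.000738). Replicate 1 was the higher of the pair at e13.5 in both genotypes, and without WT e13.5 replicate 1 the WT change was 6.55.

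Complex V, the ATP synthase, takes mt-Atp6, which forms the proton path beside the rotating ring, and the short mt-Atp8, which holds the stator. The level of mt-Atp8 was 9.95 and 3.82 CPM in the WT e13.5 libraries, 4.38 and 6.25 in KO e13.5, 365 and 369.7 in WT adults, and 623 and 558 in KO adults. It rose by 5.74 ± 0.62 in WT and 6.79 ± 0.65 in KO (adjusted p = 0.000329 and 0.000204), and without WT e13.5 replicate 1, the highest at its age, the WT change was 6.72. For mt-Atp6 the table lists 1974 and 1635 CPM in the WT e13.5 libraries, 2906 and 1007 in KO e13.5, 3945 and 3824 in WT adults, and 6743 and 8671 in KO adults. The change of 1.11 ± 0.59 in WT did not pass the test (adjusted p = 0.158), although both WT adults lay above both WT e13.5 libraries. In KO it was 1.98 ± 0.60 (adjusted p = 0.0259), with KO e13.5 replicate 1 the highest of its age and replicate 2 the lowest. The KO call was lost without KO e13.5 replicate 2, either WT adult library or either KO adult library (1.40 to 2.15), and without KO e13.5 replicate 1 the change was 2.95. The 2 genes lie on overlapping bases, shown above, and are known to share 1 messenger RNA.

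Neither ribosomal RNA was called higher in either genotype. For mt-Rnr1, the RNA of the small mitochondrial ribosomal subunit, the libraries held 1135 and 529.8 CPM in the WT e13.5 libraries, 819 and 726 in KO e13.5, 1678 and 2174 in WT adults, and 2116 and 1523 in KO adults. The difference of 1.21 ± 0.52 in WT and 1.24 ± 0.52 in KO (adjusted p = 0.0899 and 0.0809) did not pass the test, but reached it in WT without WT e13.5 replicate 1 (2.0, adjusted p = 0.0457). For mt-Rnr2, the RNA of the large subunit, they held 21686 and 13896 CPM in the WT e13.5 libraries, 13649 and 17083 in KO e13.5, 5196 and 6482 in WT adults, and 6289.9 and 6521 in KO adults. It fell by 1.61 ± 0.54 on the log2 scale in WT (adjusted p = 0.0396), and in KO, with -1.26 ± 0.53, it did not pass (adjusted p = 0.0817). The WT call was lost without WT e13.5 replicate 1, either WT adult library or either KO adult library, with changes between -1.75 and -1.11, and under 4 other settings. The KO call was gained under 4 settings, and the difference in change between the genotypes, 0.35 ± 0.74, did not pass the test. Counts of mt-Rnr2 were 16.7 to 26.2 times those of mt-Rnr1 at e13.5 and 2.97 to 4.28 times in adults, a ratio that uses no scaling between libraries. Smart-seq2 primes reverse transcription on poly(A), so a level of ribosomal RNA here is that of the molecules captured in this way.

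The transfer RNAs could not be measured in these libraries. Of the 22 genes, 14 had no count in any library, and all 22 together had 33 counts. Of these mt-Ts1, which reads serine codons, had 25, with 1 to 6 in each library, and the next, mt-Tq (glutamine), had 2. The others with counts, mt-Tm, mt-Ta, mt-Tn, mt-Tc, mt-Th and mt-Tp, had 1 each. None was tested, and transfer RNAs are short and carry no poly(A), so the counts do not bear on their levels in the cells. The sequence of mt-Ts1 (chrM:6870-6938, minus strand) is shown as that of the only transfer RNA gene with counts in every library, and its last 3 bases lie opposite the end of mt-Co1 (chrM:5328-6872).
mt-Ts1: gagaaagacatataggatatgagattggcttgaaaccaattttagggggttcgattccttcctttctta

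How the counting had divided reads between a gene and its nuclear copy changed with the library, and for 4 genes by a large amount. The values are the part of the pooled counts of gene and copy that the table gives to the copy. For mt-Nd4l and Gm10222 it was 97.3 and 97.3% in the WT e13.5 libraries, 95.1 and 100 in KO e13.5, 7.24 and 9.57 in WT adults, and 0 and 20.1 in KO adults. The copy thus held almost all counts at e13.5 and few in adults, while the sequence shared by the pair is identical over 294 bases. For mt-Atp6 and Gm10925 it was 33.9 and 29.4% in the WT e13.5 libraries, 0 and 45.4 in KO e13.5, 79.0 and 83.9 in WT adults, and 78.5 and 63.2 in KO adults. The 0 in KO e13.5 replicate 1 stands for none of 46489 counts. The pair is identical over 678 bases, so the division is an estimate, and its 0 sets no upper limit on the share. Here the copy held more in adults than at e13.5. For mt-Co3 and Gm28437 the division was 86.8 and 87.4% in the WT e13.5 libraries, 82.3 and 79.3 in KO e13.5, 52.6 and 31.2 in WT adults, and 61.5 and 55.2 in KO adults.

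For mt-Nd3 and Gm28438 the copy held 81.1 and 72.2% in the WT e13.5 libraries, 72.9 and 67.5 in KO e13.5, 69.4 and 63.1 in WT adults, and 66.9 and 71.1 in KO adults, with overlap between the ages. For mt-Co1 and its copies Gm29216 and Gm13340 it was 12.9% to 15.3% at e13.5 and 7.33% to 10.5% in adults. For mt-Co2 the copies held 15.3% and 15.9% in replicate 1 of the WT and KO adults, and at most 0.888% in the other 6 libraries. Gm28439, the copy identical to 876 bases of mt-Nd4, was listed at 0 in all libraries, as was Gm4076, the copy of mt-Nd5. The division between sequences that differ by so little rests on the counting step, and the reads that gave these values were not used here.

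**Figure D3:**
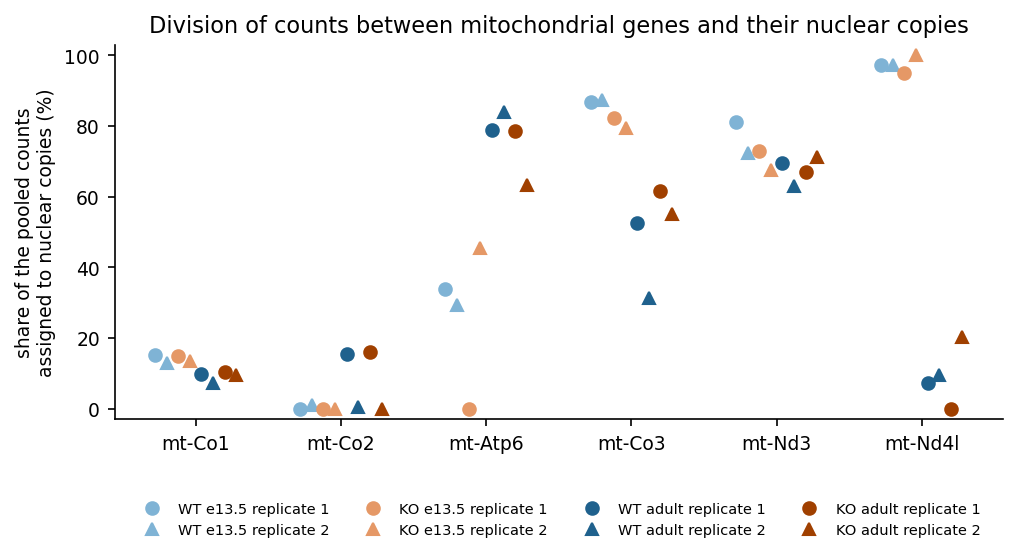
Share (%) of the pooled counts of each gene and its nuclear copies that the deposited table assigns to the copies, for the 6 genes with a share above 1% in any library, with 1 symbol per library. The share runs from 95.1% to 100% at e13.5 and from 0% to 20.1% in adults for mt-Nd4l, and the other way for mt-Atp6, from 0% to 45.4% and from 63.2% to 83.9%.

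When each gene was summed with its copies before the fit, an alternative chosen after the data were seen, all 13 protein genes rose in both genotypes, against 17.8% of all genes in WT and 20.5% in KO. The medians were then 4.36 in WT and 4.87 in KO. The summed level of mt-Atp6 was 2983 and 2315 CPM in the WT e13.5 libraries, 2904 and 1841 in KO e13.5, 18774 and 23696 in WT adults, and 31326 and 23638 in KO adults. Its change became 3.003 ± 0.56 in WT and 3.53 ± 0.58 in KO (adjusted p = 0.00318 and 0.00149), and the gap between the KO e13.5 libraries shrank. The summed level of mt-Nd4l was 71.2 and 90.7 CPM in the WT e13.5 libraries, 39.2 and 70.9 in KO e13.5, 2249.9 and 1932 in WT adults, and 2788 and 2149.6 in KO adults, and its change fell to 4.69 ± 0.55 in WT and 5.49 ± 0.57 in KO (adjusted p = 0.000402 and 0.000253). For mt-Co3 the summed change was 3.55 ± 0.70 and 4.26 ± 0.72, and for mt-Nd3 3.70 ± 0.72 and 4.88 ± 0.76, in WT and KO. All changes then lay between 3.003 and 6.41 in WT and between 3.53 and 6.79 in KO, with mt-Nd2 and mt-Atp8 at the top. The change of mt-Atp8 differed from that of mt-Atp6, with which it is known to share 1 messenger RNA. The division of counts between these genes was not tested.

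**Figure D4:**
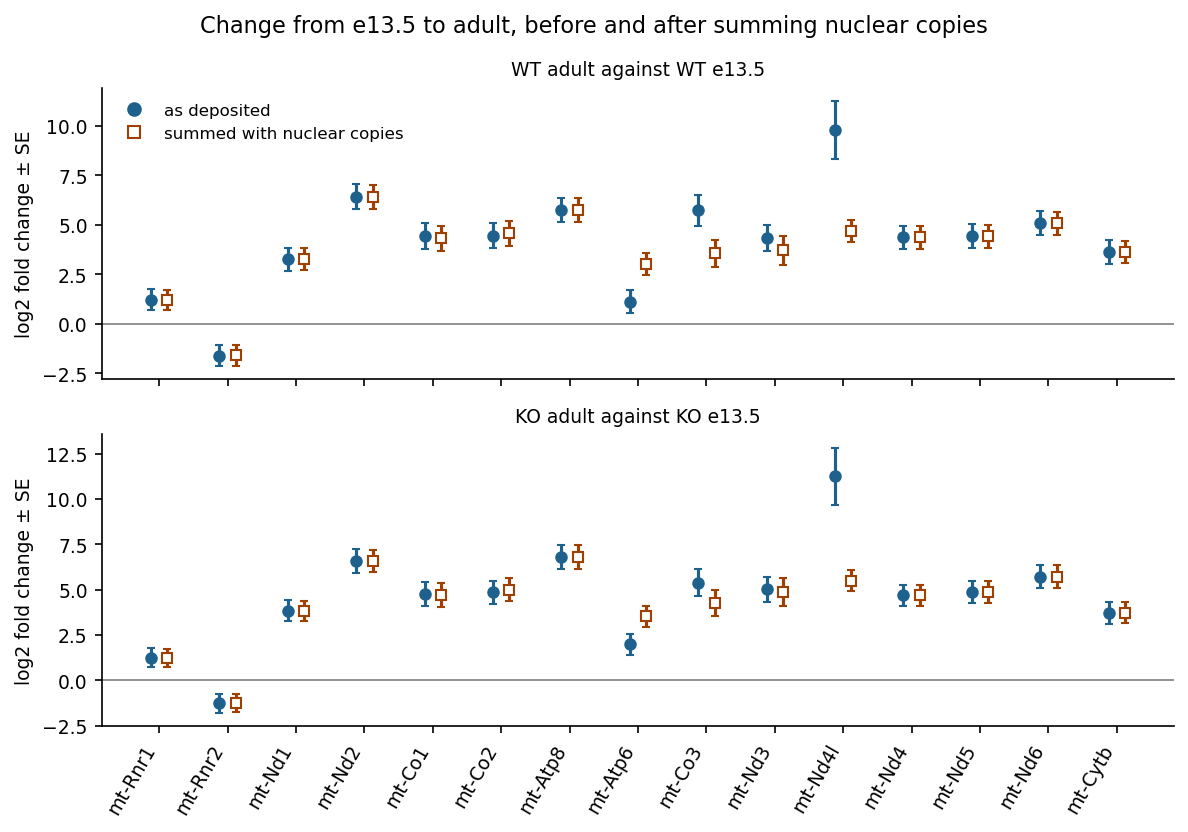
Log2 fold change from e13.5 to adult with its standard error, for WT (upper panel) and KO (lower panel), from the counts as deposited (filled circles) and after summing each gene with its nuclear copies (open squares). Summing brings mt-Nd4l down to 4.69 and 5.49 and mt-Atp6 up to 3.003 and 3.53, and moves the 2 ribosomal RNAs by no more than 0.01.

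Levels of different genes were compared per kilobase of gene length, as means of the 2 libraries. In all 4 groups mt-Co1 was the highest, with 3536 ± 302 CPM per kilobase (SD, n = 2) in WT e13.5, 3237 ± 490 in KO e13.5, 75455 ± 15567 in WT adults and 87907 ± 11592 in KO adults. With the copies summed it was the highest too, and the genes next to it depended on how the counts were divided. At e13.5 mt-Atp6 and mt-Cytb followed in both genotypes in the counts as deposited, and mt-Atp6 and mt-Co3 with the copies summed. There mt-Co1, mt-Atp6 and mt-Co3 overlapped in their libraries in both genotypes. In adults mt-Co2, mt-Cytb and mt-Co3 followed as deposited. With the copies summed mt-Co3 (43837 ± 2890 CPM per kilobase in WT and 62495 ± 22622 in KO) and mt-Co2 (41647 ± 1507 and 59859 ± 10226) came next and overlapped, ahead of mt-Atp6 and mt-Cytb, which also overlapped. The lowest as deposited was mt-Nd4l at e13.5, with 7.35 ± 1.40 and 3.26 ± 4.61 CPM per kilobase, and mt-Nd3 in adults, with 1446 ± 159 and 2788 ± 1718. With the copies summed the lowest was mt-Atp8 in all 4 groups, with 33.7 ± 21.2 in WT e13.5, 26.0 ± 6.48 in KO e13.5, 1802 ± 15.2 in WT adults and 2897 ± 221 in KO adults. The highest then lay 122 and 145 times above the lowest at e13.5 in WT and KO, and 45.8 and 33.8 times in adults. As deposited, with mt-Nd4l at 0 in 1 library, these ratios were 481 and 992, and 52.2 and 31.5. The short mt-Atp8 (204 bases, of which 43 are shared with mt-Atp6) is known to share 1 messenger RNA with mt-Atp6. Yet mt-Atp6 with its copy summed was at 3889 ± 693 in WT e13.5. How the counting divided reads between these 2 genes was not tested. The rank of mt-Atp8, and the ratios built on it, are therefore of counts and may not be those of RNA levels.

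The make-up of the protein gene counts, which needs no scaling between libraries, differed between the ages in the same way in both genotypes. The part taken by mt-Nd2 was 1.12% to 1.26% of the counts of the 13 genes in the 4 e13.5 libraries and 5.28% to 5.50% in the 4 adult ones. With the copies summed it was 0.833% to 1.03% and 4.24% to 4.76%. The part of mt-Co1 was 29.7% to 35.7% and 38.9% to 41.3%, that of mt-Nd6 0.204% to 0.497% and 0.623% to 0.709%, and that of mt-Atp8 0.0235% to 0.0604% and 0.114% to 0.176%. In the other direction mt-Cytb went from 16.9% to 19.5% at e13.5 to 11.1% to 12.4% in adults, and mt-Nd1 from 9.92% to 13.3% to 5.79% to 7.41%. None of these ranges overlapped between the ages, with or without the copies. For mt-Atp6 the range went from 8.06% to 15.6% to 1.18% to 2.74%, but with its copy summed only from 12.0% to 13.4% to 6.22% to 6.87%. For mt-Co3 the parts of 1.49% to 3.35% and 5.15% to 7.65% were apart, but with its copy summed they were 9.83% to 18.0% and 9.82% to 13.498% and overlapped. Those of mt-Nd3, mt-Nd4 and mt-Nd5 overlapped either way, and those of mt-Co2 overlapped only with the copies left out. The part of mt-Nd4l, 0% to 0.0156% and 0.540% to 0.825%, was 0.173% to 0.475% and 0.528% to 0.745% with its copy.

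Most nuclear subunits of the same complexes were not called, and their median changes were below 1 on the log2 scale. Of the 80 nuclear genes tested for complexes I, III, IV and V, 3 rose and 5 fell in WT, with a median log2 fold change of 0.24, and 5 rose and 4 fell in KO, with a median of 0.74. Of all genes tested, 17.8% rose and 21.1% fell in WT, and 20.5% rose and 20.9% fell in KO, and every count of nuclear genes below is to be read beside these shares. In complex I none of 37 nuclear subunits was called in WT and 1 in KO, where Ndufb10, a subunit of the membrane arm, had 1.65 ± 0.59 (adjusted p = 0.0472). The nuclear medians of complex I were 0.21 in WT and 0.74 in KO, beside 4.42 and 4.88 for its 7 mitochondrial genes with copies summed. None of the 9 nuclear subunits of complex III was called in either genotype, with medians of 0.59 and 0.84.

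Of 16 nuclear subunits of complex IV 3 rose and 3 fell in WT, near the 17.8% and 21.1% of all genes, and 4 rose and 2 fell in KO, beside 20.5% and 20.9%. Cox8b, the muscle form of subunit 8, rose by 2.79 ± 0.59 in WT and 3.80 ± 0.62 in KO (adjusted p = 0.00569 and 0.00148). Cox8a, the form of most tissues, fell by 2.75 ± 0.56 in WT (adjusted p = 0.00484), and Cox6b2, a form known from testis, by 3.40 ± 0.77 (adjusted p = 0.00779). In KO Cox7a1, a heart and muscle form, rose by 3.64 ± 0.71 (adjusted p = 0.00362). At most 3 called genes of a list were named in each genotype, so a gene named in 1 genotype may have been called in both. No gene tested was called in the interaction of genotype and age, so no call here sets the genotypes apart. In complex V 2 of 18 fell in each genotype, and no other gene of this list was called. Atp5g2, which is only 1 of the genes for the ring subunit beside Atp5g1 and Atp5g3, had -4.16 ± 0.42 in WT and -2.96 ± 0.40 in KO (adjusted p = 0.000278 and 0.000644). Its fall is thus not that of all RNA for the ring. Atpif1, the inhibitor of the synthase and no subunit of it, had -2.48 ± 0.60 and -2.05 ± 0.59. Complex II has no mitochondrial gene, and of its 4 subunits Sdha rose by 1.66 ± 0.53 in WT and 1.63 ± 0.53 in KO (adjusted p = 0.0332 in both).

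**Figure D5:**
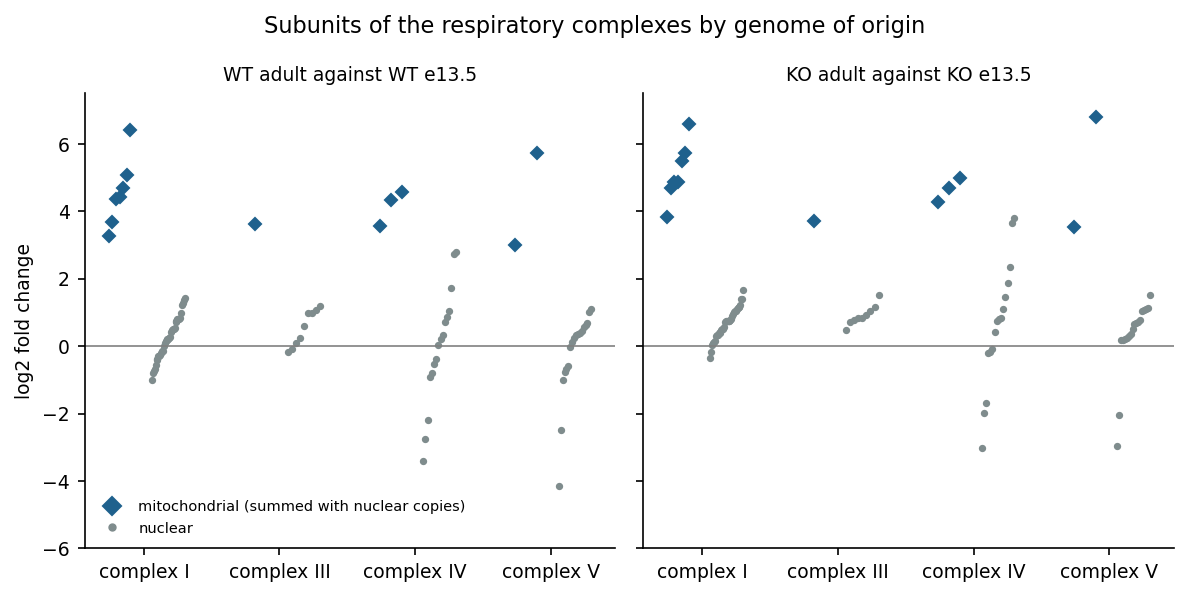
Log2 fold change from e13.5 to adult of the mitochondrial genes (diamonds, summed with their nuclear copies) and of the nuclear genes (dots) for each complex, in WT (left) and KO (right), each point 1 gene. All mitochondrial genes lie at 3.003 or higher, and the nuclear genes have medians between 0.12 and 0.84.

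Of 10 nuclear genes listed for mitochondrial transcription and its factor families, 2 rose in WT and 1 in KO, beside 17.8% and 20.5% of all genes. Mterf2, a factor of the family that binds mitochondrial DNA, rose by 1.67 ± 0.54 in WT and 1.67 ± 0.54 in KO (adjusted p = 0.0345 and 0.0329), and Tfb2m, which opens the promoter with the polymerase, by 1.20 ± 0.42 in WT (adjusted p = 0.0462), with 0.72 ± 0.42 in KO (adjusted p = 0.183). The polymerase itself, Polrmt, differed by 0.72 ± 0.42 in WT and 1.03 ± 0.42 in KO (adjusted p = 0.194 and 0.0715), and the elongation factor Tefm by 0.75 ± 0.59 and 0.66 ± 0.59 (adjusted p = 0.335 and 0.384). Tfam, which packs the DNA and starts transcription, was at 40.6 and 25.3 CPM in the WT e13.5 libraries, 55.4 and 28.7 in KO e13.5, 39.1 and 40.1 in WT adults, and 39.1 and 38.0 in KO adults. Its groups overlapped between the ages, with 0.26 ± 0.45 in WT and -0.12 ± 0.45 in KO (adjusted p = 0.668 and 0.842), and turned to -0.01 in WT without WT e13.5 replicate 2 and to 0.45 in KO without KO e13.5 replicate 1. The calls of Mterf2 and Tfb2m were lost without either WT adult library, among others (1.17 to 1.81 in WT).

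Of 21 genes for RNA processing, stability and decay, 5 rose and none fell in each genotype, beside 17.8% of all genes higher in WT and 20.5% in KO. Grsf1, a protein of the granules where mitochondrial RNA is processed, rose by 3.12 ± 0.48 in WT and 2.83 ± 0.47 in KO (adjusted p = 0.00125 and 0.00173). Taco1, an activator of mt-Co1 translation, had 9.72 and 6.61 CPM in the WT e13.5 libraries, 10.2 and 4.59 in KO e13.5, 78.4 and 66.7 in WT adults, and 68.9 and 89.5 in KO adults, and rose by 3.15 ± 0.52 (adjusted p = 0.00175) and 3.43 ± 0.52 (adjusted p = 0.00115). Fastkd1 rose by 1.71 ± 0.52 in WT and 1.81 ± 0.52 in KO (adjusted p = 0.0268 and 0.0207). Lrpprc, which with Slirp holds messenger RNAs stable and polyadenylated, had 12.2 and 94.2 CPM in the WT e13.5 libraries, 9.88 and 49.5 in KO e13.5, 292 and 314 in WT adults, and 185 and 311 in KO adults. It differed by 2.51 ± 0.95 in WT (adjusted p = 0.06) and rose by 3.06 ± 0.97 in KO (adjusted p = 0.0304), with the e13.5 libraries split between replicate 1 and replicate 2. The WT change was 4.66 (adjusted p = 0.00393) without WT e13.5 replicate 2, and the KO call was lost without KO e13.5 replicate 1 (2.34) or either KO adult library (3.40 and 2.66). Its partner Slirp had -1.27 ± 0.54 in WT and -0.78 ± 0.54 in KO, neither past the threshold (adjusted p = 0.0891 and 0.26), but reached it in WT without WT e13.5 replicate 2 (-1.75, adjusted p = 0.0218). The calls of Grsf1 and Taco1 held in both genotypes whichever library was left out, and that of Fastkd1 did not in either (1.39 to 1.87 where lost).

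Of 17 genes for replication of the mitochondrial genome and nucleotide supply 1 rose and 1 fell in WT, and 2 rose and 2 fell in KO, where 17.8% and 21.1% of all genes did in WT and 20.5% and 20.9% in KO. Slc25a33, a carrier of pyrimidine nucleotides, rose by 5.73 ± 1.04 in WT and 6.07 ± 1.10 in KO (adjusted p = 0.00282 and 0.00254) from under 1 CPM at e13.5. The nuclease Exog had -1.74 ± 0.49 and -1.58 ± 0.49 (adjusted p = 0.0205 and 0.0272). Polg2, the second subunit of the DNA polymerase, had -1.43 ± 0.49 in KO (adjusted p = 0.04), and its -1.11 ± 0.48 in WT did not pass the test (adjusted p = 0.0924). Among 20 genes for modification of ribosomal and transfer RNA, 1 rose in WT, and 1 rose and 2 fell in KO, also below the shares of all genes. Trmt5, a transfer RNA methyltransferase, rose by 1.71 ± 0.47 and 1.36 ± 0.47, and in KO Trnt1, which adds CCA ends, had -1.45 ± 0.44 and Trit1 -1.52 ± 0.51 (adjusted p = 0.0266 and 0.0384).

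Among 20 aminoacyl-tRNA synthetase genes, 1 rose and 1 fell in WT, and 2 rose and 1 fell in KO, below the shares of all genes. Yars2, for tyrosine, rose by 2.18 ± 0.55 in WT and 2.89 ± 0.57 in KO (adjusted p = 0.0125 and 0.00368), while Ears2, for glutamate, had -1.46 ± 0.49 and -1.65 ± 0.50 (adjusted p = 0.0409 and 0.0252). Cars2, for cysteine, rose by 1.91 ± 0.61 in KO (adjusted p = 0.0318), and Lars2, for leucine, had -1.14 ± 0.42 and -1.08 ± 0.42 with adjusted p = 0.0536 and 0.0624. Of 11 translation factors, 2 rose in WT and 5 in KO, beside 17.8% and 20.5% of all genes, and none fell. Gfm2, which recycles ribosomes, rose by 1.61 ± 0.40 and 1.5 ± 0.39, and Gfm1, the elongation factor, by 1.40 ± 0.42 and 1.53 ± 0.42, in WT and KO. In KO the release factor Mtrf1l rose by 3.77 ± 0.86 (adjusted p = 0.00752).

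Of 10 regulators of mitochondrial biogenesis, 3 rose and 2 fell in WT, beside 17.8% and 21.1% of all genes. In KO 4 rose and 2 fell, beside 20.5% and 20.9%. Only the 3 called genes of smallest p are named here, with Ppargc1a, so the regulators that fell are not shown. Perm1 had the largest change of the nuclear partner genes named here. Perm1, a muscle regulator of energy metabolism, had 1.15 and 2.58 CPM in the WT e13.5 libraries, 0.625 and 2.29 in KO e13.5, 431 and 418 in WT adults, and 405 and 425 in KO adults, and rose by 7.81 ± 0.78 in WT and 8.11 ± 0.80 in KO (adjusted p = 0.000271 and 0.000224). The nuclear receptor Esrra rose by 4.65 ± 0.53 (adjusted p = 0.000372) and 5.13 ± 0.54 (adjusted p = 0.000261), and Esrrb by 3.32 ± 0.67 (adjusted p = 0.00453) and 5.0 ± 0.74 (adjusted p = 0.00097). Ppargc1a, a coactivator known as a master regulator of mitochondrial number, was at 72.9 and 75.5 CPM in the WT e13.5 libraries, 85.1 and 70.0 in KO e13.5, 136 and 177 in WT adults, and 51.1 and 145 in KO adults. Its difference was 1.07 ± 0.52 in WT and 0.34 ± 0.51 in KO (adjusted p = 0.123 and 0.612), with KO adult replicate 1 below all e13.5 libraries. Without KO adult replicate 2 the KO difference was -0.59. Of the calls on nuclear genes named here, 8 of 21 in WT and 11 of 27 in KO held under all 19 alternative settings, among them the 8 that leave out 1 library each. In both genotypes these were Slc25a33, Grsf1, Taco1, Perm1, Esrra, Esrrb, Cox8b and Atp5g2, and in KO also Yars2, Mtrf1l and Cox7a1. Each other call was lost when at least 1 of the 8 libraries was left out, with the direction kept.

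Between the genotypes no mitochondrial gene passed the test. At e13.5 none of 15 was called between KO and WT, where 0.0722% of all genes were, and none had an unadjusted p below 0.05 with edgeR or DESeq2. The smallest p of edgeR belonged to mt-Nd4l, with -1.25 ± 1.12 (adjusted p = 1), which is also the largest difference. It depends on the library with no count: without KO e13.5 replicate 2 the difference was -0.16, and without replicate 1, which leaves that library alone, the fitted value was -8.43 (adjusted p = 0.0739) and is no bound. Next came mt-Nd6 with -0.44 ± 0.51 and mt-Atp8 with -0.37 ± 0.51 (adjusted p = 1 for both). Each turned to the other sign without 1 library, to 0.23 for mt-Nd6 without WT e13.5 replicate 2 and to 0.62 for mt-Atp8 without WT e13.5 replicate 1. The other 12 lay between -0.32 and 0.32. Only mt-Nd1 had e13.5 libraries that did not overlap between the genotypes, which held for 15.4% of all genes. With the copies summed those of mt-Nd4l did not overlap either (71.2 and 90.7 CPM in WT, 39.2 and 70.9 in KO).

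In adults again none of 15 was called, where 0.0481% of all genes were, and none had an unadjusted p below 0.05 with either tool. The largest difference was that of mt-Atp6, with 0.99 ± 0.59 (adjusted p = 1). With its copy summed it was 0.37. It was followed by mt-Nd3 with 0.95 ± 0.57 and mt-Atp8 with 0.68 ± 0.50 (adjusted p = 1 for both), and mt-Nd3 was at 0.12 without KO adult replicate 1. The other 12 lay between -0.08 and 0.51. Both KO adults lay above both WT adults in 6 genes (mt-Co2, mt-Atp8, mt-Atp6, mt-Nd3, mt-Nd4 and mt-Cytb), and below both in none, while 27.9% of all genes did not overlap in either direction. With the copies summed mt-Atp6 overlapped, and mt-Co3 no longer did (61537 and 36455 CPM in KO, 32766 and 35970 in WT). The median difference of the protein genes as deposited was 0.22, beside 0.01 over all genes. It was 0.30, 0.30, 0.42 and 0.29 for the nuclear subunits of complexes I, III, IV and V. Of these, 34 of 37, 9 of 9, 16 of 16 and 18 of 18 genes were higher in KO. The small lean to KO was therefore not particular to the mitochondrial genes, and it was not tested.

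The change with age was also compared between the genotypes by the interaction of genotype and age. None of 15 was called, 0.0% of all genes were, and again none had an unadjusted p below 0.05 with either tool. The smallest p was that of mt-Atp8, whose rise was 1.05 ± 0.72 larger in KO (adjusted p = 1), but 0.05 larger without WT e13.5 replicate 1. It was followed by mt-Atp6 with 0.87 ± 0.82 (1.84 without KO e13.5 replicate 1), and the largest value was that of mt-Nd4l with 1.49 ± 1.5 (0.39 without KO e13.5 replicate 2, and a fitted 8.66 without replicate 1, which leaves the library at 0). The other 12 lay between -0.33 and 0.67. The nuclear lists gave the same count: no gene of the machinery, regulator or subunit lists was called between KO and WT at either age. The smallest p there was that of Esrrb at e13.5, with -1.93 ± 0.67 (adjusted p = 1), and in adults that of Cdk5rap1, a modifier of transfer RNA, with 0.96 ± 0.52 (adjusted p = 1).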

How the data were processed

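RNA was extracted from 8 heart cardiomyocyte libraries (4 groups of 2), and 200 ng of total RNA was reverse transcribed and amplified with Smart-seq2, per the labels' protocols. The authors deposited 1 table of expected counts per Ensembl gene, made with RSEM on mm10 per the submitters' processing notes. The values are whole numbers, so no rounding was needed. The versions, aligner and annotation were not given in the sources used here. RSEM divides reads that match several places by an estimate, which bears on genes with near-identical copies.

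Genes were taken by position from GENCODE vM21 on GRCm38, which held 51633 of the 51826 identifiers. Nuclear copies were found with BLAST 2.17.0. Counts were tested with edgeR 4.0.16 in R 4.3.3 (filterByExpr, TMM, quasi-likelihood F-test, two-sided, Benjamini-Hochberg adjustment over all 16623 genes tested, 4 group means), and the script was checked on simulated data. All 8 libraries shared the estimate of the spread, with 4 residual degrees of freedom. Alternatives were DESeq2 1.42.0, other filters and scalings, leaving out each library, a replicate block and the sum with nuclear copies. Members and gene lists were chosen with earlier results of these data known. All 37 members were accounted for. In the contrasts of genotype those of the 3 smallest p and the largest change were named. Of the nuclear lists up to 3 called genes by smallest p were named, with Polrmt, Tfam, Tfb2m, Tefm, Lrpprc, Slirp, Ppargc1a and Lars2.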

Additional observations from a re-analysis of the deposited data

How the results depend on the processing

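The number of mitochondrial genes called with age stayed between 12 and 13 higher and 0 and 1 lower in WT, and between 12 and 14 higher and 0 and 1 lower in KO, under every setting. It was 12 to 13 in both when 1 library was left out, and 0 in each contrast of genotype and in the interaction under all settings that could be run. The share of counts in the protein genes ranged, library left out, from 1.75% to 2.28% in WT e13.5, 1.75% to 1.81% in KO e13.5, 22.0% to 27.4% in WT adults and 26.7% to 28.2% in KO adults. Summed with nuclear copies, it was 2.56%, 2.18%, 28.6% and 33.0%, and without haemoglobin and nuclear ribosomal RNA 2.14% in KO e13.5. The part of mt-Co1 in WT adults, 40.4%, was 39.4% to 41.3% with 1 library left out, 29.6% per base and 38.0% with the copies. Directions turned when 1 library was left out for mt-Nd6 at e13.5 (-0.75 to 0.23) and mt-Atp8 at e13.5 (-0.88 to 0.62). They also turned for Tfam in WT, with library totals alone (-0.23), with the block at e13.5 alone (-0.10) and with 1 library left out (-0.0136 to 0.78), and in KO with 1 library left out (-0.53 to 0.45). For Ppargc1a in KO they turned with library totals alone (-0.16) and with 1 library left out (-0.59 to 0.91). The cause was not tested. Library totals alone moved the median change of all genes by -0.54 in WT and -0.55 in KO. Under the other alternatives of single mitochondrial genes 711 values kept direction and call, 16 lost the call and 9 gained it. A fit to only the 4 libraries compared was not possible for the interaction.

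Same-numbered libraries deviated from their group means with correlations of 0.552 (WT and KO e13.5), 0.308 (WT and KO adults), -0.0321 (WT e13.5 and adult) and 0.129 (KO e13.5 and adult). Those of the same age thus shared part of their deviation, more so at e13.5, and the labels do not explain the numbers. The main fit holds no replicate block, so this shared part stays in its spread. With the replicate number as a block, 14 mitochondrial genes were called in WT and 14 in KO, and none between the genotypes. The share of all genes called with that block was not worked out, so these counts have no background beside them. The number of 2 libraries a group limits what could be called.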

Other observations

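After the values had been seen, the make-up of the protein gene counts was also compared by replicate number, which the labels do not explain. With the nuclear copies summed, 3 of the 13 genes (mt-Co2, mt-Co3 and mt-Nd3) took the larger part in replicate 1 of all 4 groups, and 5 (mt-Nd2, mt-Co1, mt-Nd4, mt-Nd5 and mt-Nd6) the larger part in replicate 2. From the counts as deposited these were 1 (mt-Nd3) and 3 (mt-Nd4, mt-Nd5 and mt-Nd6). For mt-Nd6 the part as deposited was 0.223% and 0.497% in replicates 1 and 2 of WT e13.5, 0.204% and 0.377% in KO e13.5, 0.623% and 0.709% in WT adults, and 0.644% and 0.670% in KO adults. For mt-Co3 with its copy it was 18.0% and 9.83%, 15.6% and 10.3%, 10.9% and 9.82%, and 13.498% and 9.93%, in the same order. No test was made of this pattern.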
